A study of Locusta migratoria with 12 samples.

Results

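miR-276 is a microRNA (miRNA) conserved across insects, and both of its strands were measured in small RNA libraries from the fat body of adult female migratory locusts (Locusta migratoria). Its members were chosen by name: rows of the deposited count table named miR-276, miR-276a or miR-276b after an arthropod species prefix, 55 of the 26711 names in the table. Rows of the 3p and 5p arms were kept apart, and each arm was represented by the row with the highest total, cqu-miR-276-3p (1970064 counts) and dgr-miR-276a-5p (20925 counts). Together they are 2 of the 103 miRNAs left after rows holding the same reads were joined. The females were sampled on the day of adult eclosion, the moult to the adult (day 0), and at 2, 4 and 6 days after it, with 3 libraries per age. No strain, treatment or allele is given in the labels, and all 12 samples share sex, tissue and species. The labels do not say whether the libraries of an age came from separate animals, and each p-value therefore rests on library-to-library spread that could be technical in origin.

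A miRNA gene is transcribed as a hairpin that is cut into a short duplex, and 1 strand of the duplex is loaded into an Argonaute protein while the other is mostly degraded. The strand from the left side of the hairpin is the 5p arm and that from the right side is the 3p arm. In the migratory locust miR-276 has been reported to promote synchronous egg hatching through the chromatin remodelling gene brm. In flies miR-276a acts on a dopamine receptor in olfactory memory, and in Anopheles mosquitoes miR-276 in the fat body has been tied to branched-chain amino acid metabolism during the reproductive cycle. The insect fat body stores nutrients and makes yolk proteins after eclosion. None of these targets was measured in these libraries.

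Library totals over the joined miRNAs were between 386007 and 2340402 counts. Day 0 replicate 1 was the smallest and stood apart, with a median correlation with the other libraries, across miRNAs on the log2 scale, of 0.859 against 0.931 to 0.979 for the rest. It held 3713 counts of miRNAs whose number had counts only under names from Lepidoptera (moths and butterflies). The other 11 libraries held 0 to 10 such counts. Rows of miR-276 named in moths hold nearly the same counts as the locust rows, so reads of such an origin could not be told apart from locust reads. Day 6 replicate 3 did not stand apart as a whole (median correlation 0.961), but its 5p arm did, as described below. Results that rest on either library are given with and without it.

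The species rows of miR-276 fell into a few sets. Of the 39 rows of the 3p arm, 23 held between 1970057 and 1970064 counts, and the locust row (lmi-miR-276-3p, 1909065 counts) and the water flea row (dpu-miR-276, 1909956) held slightly fewer. The locust row stood at 96.3% to 97.4% of the top row in all 12 libraries. A further 12 rows, all named miR-276b, held the same 256 counts each, and the tick and mite rows held 84 each. Of the 16 rows of the 5p arm, 15 held 20529 to 20925 counts, with the locust row (lmi-miR-276-5p) at 20682, and 1 held none. Rows without an arm in their name were placed by their counts, which put hme-miR-276 with the 5p arm. Because the same reads appear under many names, the rows are not independent measurements.

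The 3p arm was abundant at every age. It was the second most abundant miRNA in 11 of the 12 libraries and ranked at position 6 in day 0 replicate 1. Its share of the counts was highest in day 0 replicate 3 (95% Clopper-Pearson interval 16.94% to 17.05%) and lowest in day 0 replicate 1, at 6.74% (6.66% to 6.81%). Such intervals, here and below, cover counting error only, since reads without molecular identifiers are not independent molecules.

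On day 0 the normalised level of miR-276-3p, in edgeR's library-scaled CPM (counts divided by the scaled library total), was 55579 in replicate 1, 148548 in replicate 2 and 159022 in replicate 3. Replicates 2 and 3 were the highest of all 12 libraries and replicate 1 the lowest. On day 2 the libraries stood at 107746, 114778 and 117414 CPM, close together and inside the day 0 range. On day 4 they stood at 119316, 129952 and 96923 CPM. On day 6 they stood at 103718, 79631 and 86450 CPM, all below replicates 2 and 3 of day 0 and above its replicate 1. The means were 121050 ± 56941 on day 0, 113313 ± 4998 on day 2, 115397 ± 16860 on day 4 and 89933 ± 12415 on day 6 (SD, n = 3). Only days 2 and 6 have groups that do not overlap, day 6 being lower, as were 18.7% of the 91 miRNAs tested in that comparison.

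**Figure D1:**
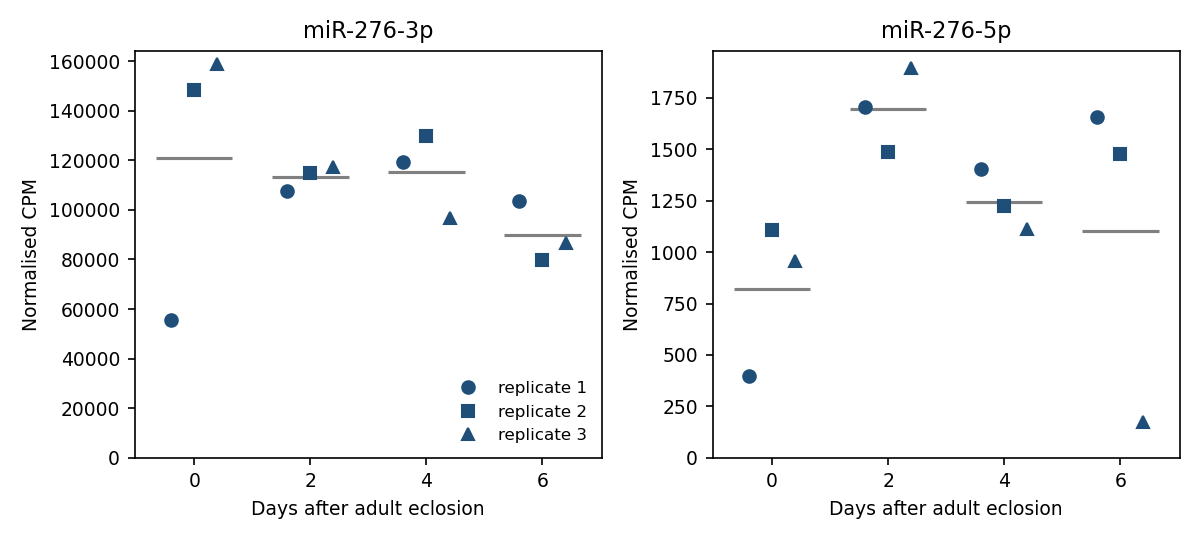
Normalised CPM of miR-276-3p and miR-276-5p in each library by age, with symbols for the replicate number and a grey line at the mean of 3 libraries. The 3p arm of day 0 replicate 1 (55579 CPM) lies far below the other day 0 libraries, and the 5p arm of day 6 replicate 3 (176 CPM) lies below all other libraries.

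With all 12 libraries the 3p arm was called changed in 0 of the 6 comparisons between ages (edgeR's quasi-likelihood test, Benjamini-Hochberg adjusted p under 0.05 over 91 miRNAs), in 0 at an unadjusted p under 0.05, and in 0 by DESeq2. Its log2 change from day 0 was -0.10 on day 2 (SE 0.34, adjusted p = 0.855), -0.07 on day 4 (SE 0.34, adjusted p = 0.881) and -0.43 on day 6 (SE 0.34, adjusted p = 0.335). The same test called 15.4%, 29.7% and 41.8% of the 91 miRNAs on days 2, 4 and 6. The values near 0 had no stable sign: on day 4 the value was 0.01 with RLE factors, 0.01 with DESeq2 and 0.28 when all rows were fitted as they stand, and on day 2 it was 0.18 with all rows.

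The comparison of day 6 with day 0 turned on day 0 replicate 1. Without that library the log2 level of miR-276-3p fell by 0.74 (SE 0.15, adjusted p = 0.00303 in edgeR's quasi-likelihood test), from 153785 ± 7406 (SD, n = 2) to 89933 ± 12415 CPM (SD, n = 3), where 45.7% of 92 miRNAs were called and 25% called lower. The test over the 4 ages gave an adjusted p of 0.0172 without it and 0.698 with it, where 39.1% and 28.6% of miRNAs were called. The day 2 and day 4 values without it were -0.40 (adjusted p = 0.0842) and -0.34 (adjusted p = 0.102), so the arm was lower at each later age than in the remaining pair of day 0 libraries and passed the threshold on day 6. With total counts as the scale, all 12 libraries gave -0.76 on day 6 (adjusted p = 0.0721), against a median of -0.33 for all miRNAs on that scale and 0.04 on the main one.

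Other measures also differed between the ages. miR-8-3p, the most abundant miRNA, rose from 8.29%, 35.6% and 26.9% of the counts of the day 0 libraries to between 57.7% and 58.4% on day 6, and with it left out of the fit the day 6 change of miR-276-3p was -0.58 (adjusted p = 0.198). The summed level of both muscle markers, miR-1 and miR-133, ranged over 433 to 3500 CPM (unscaled) on day 0, 486 to 1331 on day 2, 72.2 to 243 on day 4 and 98.8 to 673 on day 6. The scarcer muscle marker, miR-133, stood at 218, 37.2 and 31.4 CPM on day 0 and 46.5, 257 and 77.8 on day 6, and its Pearson correlation with miR-276-3p over the 12 libraries was -0.726, against 0.37 for miR-1-3p. Their part in the result was not tested. The nervous system markers miR-124 and miR-137 together came to 10.1 to 19.5 CPM on day 0 and 0 to 1.40 on day 2. On day 4 they came to 0 to 7.66 CPM and on day 6 to 0 to 25.5, and their part was not tested either. These levels rest on few reads, 0 to 15 counts of miR-124 and 0 to 28 of miR-137 per library. miR-309 of the ovary and early embryo and miR-1174 of the gut were at 0 in every library, which allows up to 3 counts in each. miR-989 of the ovary held 113 counts in day 0 replicate 1 and 0 elsewhere. No miRNA was taken as a defining marker of the fat body, so the tissue label could not be checked that way. In a bulk sample, fewer cells of a type and less RNA per cell cannot be told apart.

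The 5p arm was far scarcer, at 0.0147% to 0.206% of a library's counts and at positions 27 to 45 in the order of abundance. On day 0 its libraries stood at 399.8, 1107 and 956 CPM. On day 2 they stood at 1707, 1489 and 1893 CPM, all above every day 0 library, and on day 4 at 1406, 1222 and 1110 CPM, the lowest of which just passed the highest of day 0. On day 6 replicates 1 and 2 stood at 1659 and 1479 CPM, above all day 0 and day 4 libraries, and replicate 3 stood at 176, the lowest of the 12. Scaled levels were thus higher with no overlap on days 2 and 4 than on day 0, as they were for 16.5% and 24.2% of the 91 miRNAs. As unscaled shares of the counts, day 4 (0.108% to 0.133%) overlapped day 0 (0.0484% to 0.119%).

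With all 12 libraries the 5p arm, too, was called in 0 of the 6 comparisons, in 0 at an unadjusted p under 0.05, and in 0 by DESeq2. Its log2 change from day 0 was 1.04 on day 2 (SE 0.63, adjusted p = 0.241), 0.60 on day 4 (SE 0.62, adjusted p = 0.482) and 0.43 on day 6 (SE 0.62, adjusted p = 0.577), by edgeR's quasi-likelihood test. Day 6 replicate 3 widened the spread that all ages share: without it the SE of the day 2 change was 0.36 (adjusted p = 0.0713), and the day 6 change was 0.93 (SE 0.39, adjusted p = 0.0883).

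When both day 0 replicate 1 and day 6 replicate 3 were left out, a choice made after the values were seen, miR-276-5p rose by 0.76 on day 2 (SE 0.18, adjusted p = 0.0112) and by 0.65 on day 6 (SE 0.19, adjusted p = 0.0186), in edgeR's test. In that fit 26.1% of 92 miRNAs were called on day 2 and 42.4% on day 6. Those called higher were 14.1% and 19.6% of the 92. The day 4 value was 0.34 (adjusted p = 0.127), where 40.2% were called. In the same fit the 3p arm fell by 0.70 on day 6 (SE 0.17, adjusted p = 0.00856). In the remaining libraries, 2 on each of days 0 and 6, the arms thus differed from day 0 in opposite directions. Day 6 replicate 3 was singled out by its extreme 5p value, and day 0 replicate 1 had the lowest 3p level. The p-values of this fit therefore describe the remaining libraries and are not support for a change of either arm. With all 12 libraries neither arm was called.

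The ratio of the arms does not depend on how libraries are scaled, since both counts come from the same library. On day 0 there were 139 counts of the 3p arm per count of the 5p arm in replicate 1 (95% interval 120 to 161), 134 in replicate 2 (129 to 140) and 166 in replicate 3 (159 to 174). On day 2 the ratios were 63.1, 77.1 and 62.03, all below every day 0 library. On day 4 they were 84.9, 106 and 87.35, above every day 2 library and below every day 0 library.

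On day 6 the ratio was 62.5 in replicate 1 (60.0 to 65.2), 53.8 in replicate 2 (50.4 to 57.5) and 490.6 in replicate 3 (429 to 564). The first pair includes the lowest value of the 12 libraries, and replicate 3 is the highest, well outside the counting intervals of all the others. Put as a share of both arms, the 5p arm took 0.684% ± 0.0758 on day 0, 1.475% ± 0.17 on day 2 and 1.08% ± 0.1265 on day 4 (SD, n = 3). On day 6 it took 1.57%, 1.82% and 0.203%. Day 0 replicate 1 sat with the other day 0 libraries in this ratio, although both of its arms were at lower levels.

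**Figure D2:**
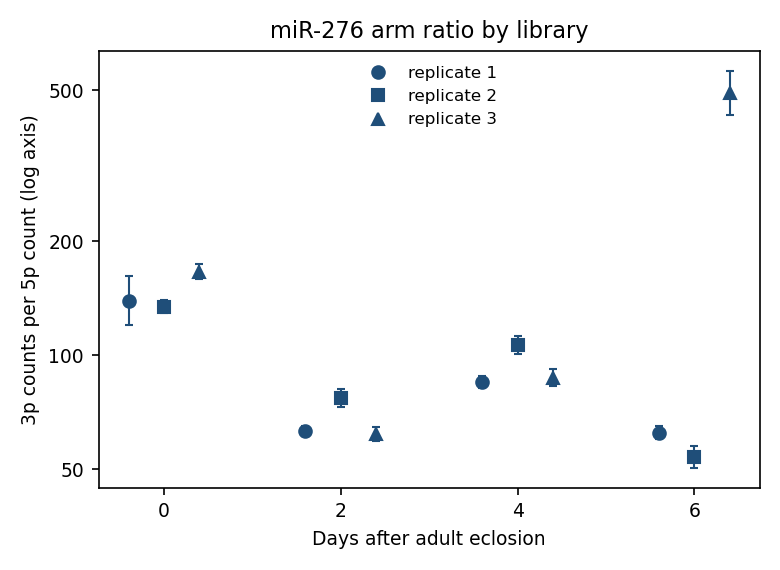
Counts of the 3p arm per count of the 5p arm of miR-276 in each library by age, on a log axis, with 95% intervals from counting error and symbols for the replicate number. The day 0 libraries lie at 134 to 166, the day 2 libraries at 62.03 to 77.1, the day 4 libraries at 84.9 to 106, and day 6 replicate 3 at 490.6.

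The log2 ratio was tested with limma together with the 7 other miRNAs that had both arms measured under arthropod names. A ninth pair, miR-252a, whose 5p arm carries a name from outside the arthropods, was dropped after the first values were seen, and the calls of miR-276 were the same with it. With all 12 libraries miR-276 was called in 0 of the 6 comparisons, and in 0 at an unadjusted p under 0.05. Its log2 difference from day 0 was -1.12 on day 2 (SE 0.67, limma adjusted p = 0.188), -0.66 on day 4 (SE 0.67, adjusted p = 0.462) and -0.30 on day 6 (SE 0.67, adjusted p = 0.66). Of the 8 miRNAs, limma called 0% on days 2 and 4 and 12.5% (1, miR-307) on day 6, while 2, 1 and 2 had an unadjusted p under 0.05. The SE is the same in each comparison because all ages share the spread that day 6 replicate 3 enters.

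Without day 6 replicate 3 the ratio of miR-276 was lower at all 3 later ages than on day 0. That library was singled out by its extreme value of this same ratio, and day 6 then has 2 libraries. The p-values without it therefore describe the remaining libraries and are not support for a fall. The log2 difference was -1.12 on day 2 (SE 0.17, limma adjusted p = 0.001), -0.66 on day 4 (SE 0.17, adjusted p = 0.0336) and -1.33 on day 6 (SE 0.19, adjusted p = 0.000643), and the test over the 4 ages gave an adjusted p of 0.00198. miR-276 was the 1 of 8 miRNAs called on day 2 (12.5%), and miR-276 and miR-307 were the 2 called on days 4 and 6 (25% each). The values of days 2 and 4 do not involve the day 6 libraries. When only the 6 libraries of days 0 and 2 were fitted, an alternative chosen after the values were seen, the day 2 difference had an SE of 0.20 and an adjusted p of 0.0157 in limma, and 12.5% of the 8 were called. For days 0 and 4 alone the SE was 0.19 and the adjusted p was 0.124, with 0% of the 8 called and miR-276 among those at an unadjusted p under 0.05 (0.0155).

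An exact permutation test of the single ratio cannot go below p = 0.10 with 3 libraries against 3, and it gave 0.10 (two-sided) for day 2 against day 0, for day 4 against day 0 and for day 4 against day 2. Adjusted over the 6 pairs of ages each of these was 0.20. Over the 4 ages the exact permutation p was 0.526 with all 12 libraries and 0.000325 without day 6 replicate 3, the library singled out by this same ratio. The groups did not overlap, day 2 below day 0, in 37.5% of the 8 miRNAs, and day 4 below day 0 in 25%. Day 4 lay above day 2 with no overlap in 25%.

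Between later ages the ratio was higher on day 4 than on day 2, by 0.46 on the log2 scale (SE 0.67, limma adjusted p = 0.928, with 0% of the 8 called and 0 at an unadjusted p under 0.05). With only the libraries of days 2 and 4 the SE was 0.13 and the adjusted p 0.0376, where 12.5% of the 8 were called. Day 6 against day 4 gave 0.35 with all libraries and -0.67 (SE 0.19, adjusted p = 0.0558) without day 6 replicate 3, so the direction turned with that library. Without day 0 replicate 1 as well it was again -0.67 and was called (SE 0.18, limma adjusted p = 0.028), as 12.5% of the 8 were. Day 0 replicate 1 belongs to neither age, so leaving it out changed the shared spread and not the difference. Day 6 replicate 3 was singled out by this same ratio, so the call is not support for a fall from day 4 to day 6. Day 6 against day 2 turned as well, from 0.82 to -0.21. In edgeR's test of levels, 0% of the 91 miRNAs were called between any of the ages 2, 4 and 6. At an unadjusted p under 0.05 there were 5 for day 4 against day 2, 14 for day 6 against day 2 and 5 for day 6 against day 4, and DESeq2 called 1, 4 and 0. Neither arm of miR-276 passed the adjusted threshold in those comparisons, nor did it without day 0 replicate 1, where 5.43% of 92 miRNAs were called higher and 6.52% lower on day 6 than on day 2.

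**Figure D3:**
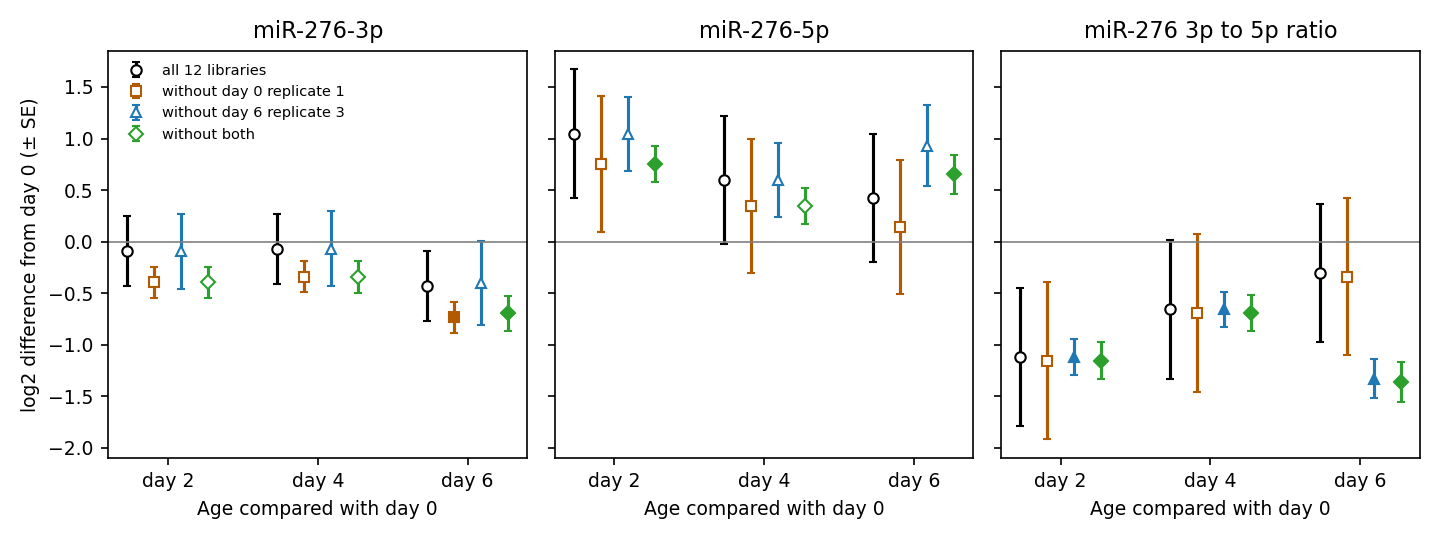
Log2 difference of days 2, 4 and 6 from day 0, with standard errors, for miR-276-3p, miR-276-5p and their ratio, fitted with all 12 libraries, without day 0 replicate 1, without day 6 replicate 3 and without both. Filled symbols have an adjusted p under 0.05; the ratio is filled at all 3 ages once day 6 replicate 3 is left out, and the 3p arm on day 6 once day 0 replicate 1 is left out.

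The low 5p arm of day 6 replicate 3 was one of a few low values in that library. Against the mean of the other day 6 libraries on the log2 scale, miR-276-5p was lower by 3.14 (a difference of -3.14), the third lowest of the 91 miRNAs, whereas miR-276-3p differed by -0.07. Only miR-iab-4-5p, from the Hox cluster (-3.96, with 1.64 CPM against 14.4 and 109), and miR-33-5p, encoded inside the gene of a lipid regulator in flies (-3.79, with 65.6 CPM against 954 and 883), were lower still. At the other end stood miR-316-5p (2.73), miR-14-3p, a regulator of cell survival and fat storage in flies (1.82), and miR-965-3p (1.65). These miRNAs were named after their values were seen. The raw count behind miR-276-5p there was 215 of 1465194, against 921 of 626809 in the shallower replicate 2, so depth does not limit this value. The locust row held 94.0% of the top 5p row in that library (95% interval 89.9% to 96.7%) and 98.3% to 99.5% in the 11 others.

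The span of the miR-276 arm ratio lay within that of the other miRNAs with both arms measured, and rested on day 6 replicate 3. Its log2 ratio spanned 3.19 over the 12 libraries and 1.63 without day 6 replicate 3. The spans of the other 7 were 0.72 for miR-10, 1.65 for miR-307, 2.18 for miR-8, 2.49 for miR-71, 3.14 for miR-9a, 3.19 for miR-281 and 3.87 for miR-190. In day 6 replicate 3 miR-276 differed from the mean of the other day 6 libraries by 3.08, and the next largest difference was that of miR-9a, 1.32, with the remaining 6 between -0.38 and 0.51. In day 0 replicate 1 the picture was the other way round. There miR-276 differed from the other day 0 libraries by -0.11, and miR-8, miR-71, miR-281, miR-9a and miR-190 differed by -1.79, -1.86, -2.58, 2.62 and -2.66, the last from 1 count of miR-190-3p. By its median of 86.1, miR-276 had the most one-sided ratio in favour of the 3p arm, ahead of miR-307 (68.5) and miR-8 (21.1), as a description of these 8. A pair enters only where both arms reach 120 counts in all, so more one-sided miRNAs can be missing.

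**Figure D4:**
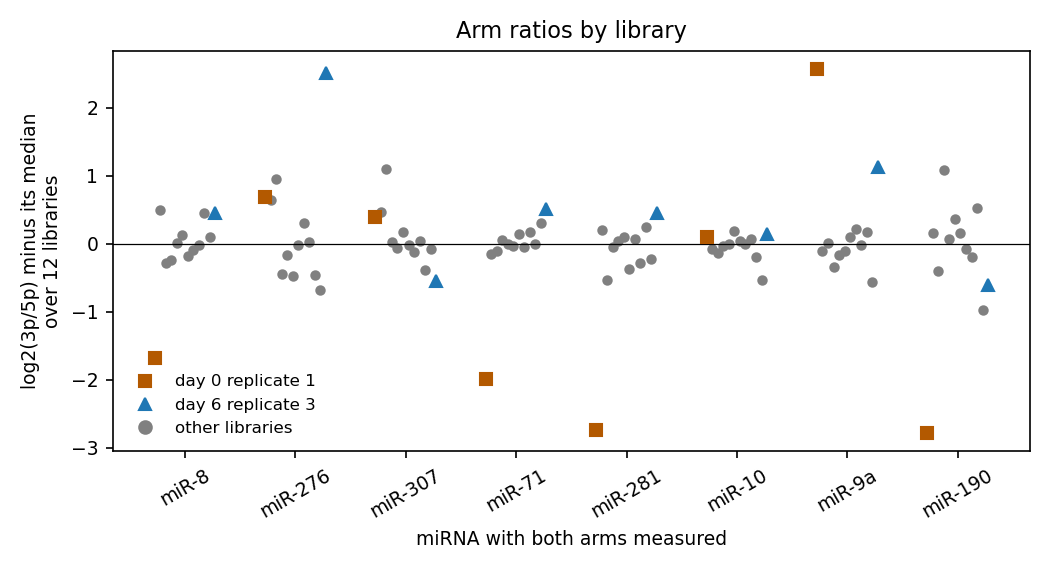
Log2 ratio of the 3p to the 5p arm minus its median over the 12 libraries, for the 8 miRNAs with both arms measured, each point a library. Day 6 replicate 3 is far from the rest for miR-276, and day 0 replicate 1 for miR-8, miR-71, miR-281, miR-9a and miR-190 but not for miR-276.

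A minor 3p form, counted under the 12 miR-276b names, was present at low counts. miR-276b is a second copy of the miRNA in flies, and whether the locust has such a gene is not given in the sources used here. Its rows held 4, 76 and 72 counts in the day 0 libraries, 26, 5 and 11 on day 2, 16, 15 and 13 on day 4, and 9, 3 and 6 on day 6. Reads shared between so similar names may be split between them, so these counts are uncertain. Per 100000 counts of both 3p forms it stood at 15.4 (4.19 to 39.4), 21.6 (17.03 to 27.05) and 22.6 (17.6 to 28.4) on day 0. On day 2 it stood at 10.7, 5.22 and 8.58, on day 4 at 6.56, 10.7 and 10.5, and on day 6 at 6.23, 6.05 and 5.69. Every later library lay below every day 0 library, although the interval of day 0 replicate 1, from 4 counts, spans all of them.

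**Figure D5:**
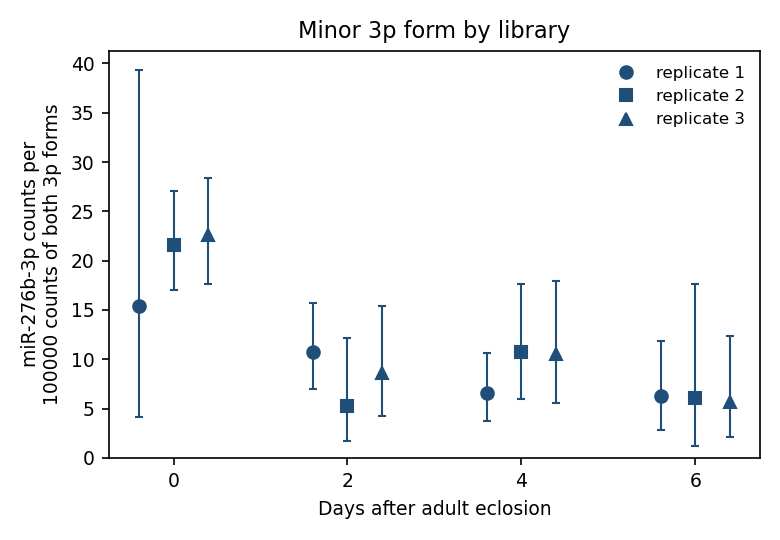
Counts of the miR-276b-3p form per 100000 counts of both 3p forms in each library by age, with 95% Clopper-Pearson intervals and symbols for the replicate number. The day 0 libraries lie at 15.4 to 22.6 and the later libraries at 5.22 to 10.7.

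The minor form passed the joining minimum of 120 counts in all only through its day 0 libraries, where it was highest. The values above and the tests below therefore describe its fall from day 0 and are not support for it. The log2 level of the minor form fell by 2.26 from day 0 to day 6 (SE 0.57, adjusted p = 0.0103 in edgeR's quasi-likelihood test), in a comparison where 25.3% of miRNAs were called lower. This call held in all 12 fits that left out 1 library, with values from -2.58 to -1.97. The day 2 and day 4 values, -1.49 (adjusted p = 0.0812) and -1.32 (adjusted p = 0.0825), passed the threshold without day 0 replicate 1, at -1.82 (adjusted p = 0.00714) and -1.61 (adjusted p = 0.00471), where 12% and 19.6% of 92 were called lower. Its share against the major 3p form gave an exact permutation p of 0.00546 over the 4 ages, with 0.10 (two-sided, the smallest possible) for each later age against day 0.

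The miRNAs most like miR-276-3p were ranked by the Pearson correlation of log2 CPM over the 12 libraries, among 66 other tested miRNAs with an arthropod name. They were miR-9a-5p (r = 0.886), which limits sensory organ formation in flies, and bantam (0.874), a growth-promoting miRNA of flies. Next came a scarcer set of bantam rows labelled bantam-3p (0.852), miR-13a-3p (0.708) and miR-190-3p (0.661). All points share libraries, depth and the scaling, and day 0 replicate 1 enters each. Without it the nearest were miR-10-3p (0.945), miR-263a-5p (0.935), miR-9a-3p (0.927), miR-9a-5p (0.926) and miR-31a-5p (0.923). For miR-276-5p the nearest were miR-33-5p (0.757), miR-184b (0.645), miR-282-5p (0.641), bantam (0.625) and miR-190-3p (0.625). Without day 6 replicate 3 they were miR-9c-5p (0.933), miR-12-5p (0.919), miR-190-3p (0.915), miR-13b-3p (0.897) and miR-9e-5p (0.881). Of the named miRNAs, miR-9a-5p stayed near the 3p arm in both of its orders. miR-190-3p stayed near the 5p arm, but both of those orders keep day 0 replicate 1, where miR-190-3p held 1 count. Leaving that library out took the correlation of miR-190-3p with the 3p arm from 0.661 to 0.013. Its likeness to the 5p arm without that library is not given here.

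Other miRNAs reported in female reproduction of locusts or mosquitoes, a list of 10, were set beside miR-276. For 6 of them 9 forms were tested, and miR-309, miR-989, miR-1174 and miR-1890 were not. Against day 0, 0 rose and 2 fell on day 2 (3.3% and 12.1% of all 91 miRNAs), and 2 rose and 3 fell on day 4 (11% and 18.7% of all) and on day 6 (16.5% and 25.3% of all). Without day 0 replicate 1 there were 2 risen and 2 fallen on day 2, where 23.9% of 92 miRNAs were called. There were again 2 and 3 on day 4, where 37% were called, 17.4% higher and 19.6% lower, and on day 6, where 20.7% were called higher and 25% lower. The list's median log2 change was -0.48, -0.83 and -0.90 on days 2, 4 and 6, against -0.06, -0.07 and 0.04 for all miRNAs, and -0.05, -0.19 and -0.05 without day 0 replicate 1, against -0.02, 0.02 and 0.22 for all. The comparisons share the day 0 libraries. On day 6 miR-8-3p and miR-8-5p, of a family tied to insulin signalling in flies, changed by 1.63 and 1.07 (1.24 and 1.01 without day 0 replicate 1), let-7-5p and miR-278-3p, reported regulators of the hormone response gene Kr-h1 in locusts, by -0.90 and -2.43 (-0.63 and -1.56 without day 0 replicate 1), and a scarcer miR-8-3p form by -4.54 (-1.67 without day 0 replicate 1). miR-305-5p (-0.06), miR-277-3p (0.67), miR-275-3p (-1.07), needed for blood digestion and egg development in mosquitoes, and the scarcer form of miR-278 (-1.19) did not pass the test. Without day 0 replicate 1 these were -0.05, 0.44, 0.21 and -0.51, so that of miR-275-3p turned sign, and none passed.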

How the data were processed

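Fat body small RNA of 12 samples was sequenced, with TRIzol extraction and Illumina's usual library protocol, per the labels. The authors deposited raw counts per mature miRNA name. For the aligner, its mismatches and the miRNA release: not given in the sources used here. Columns were matched to samples through their descriptions.

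Of 5500 names with counts, 1513 rows with at least 120 counts in all were joined where they agreed in every library (within 25% plus 5 counts for the same miRNA number, 5% plus 3 counts for others), into 154 profiles. Profiles at a fixed share of another, more abundant profile with equal number, arm and letter (within a factor of 1.5 or 2.5 counting SDs, 1 library allowed outside) were then added to that profile's miRNA, leaving 103 miRNAs. The design had assumed rows as they stand; that fit is an alternative.

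Levels were tested with edgeR 4.0.16 (R 4.3.3), TMM factors, filterByExpr (minimum count 10) and age as a factor over all 12 libraries. SE is the size of the change divided by the square root of F. Log2 arm ratios (0.5 added to each count) were tested with limma 3.58.1 over 8 miRNAs; the limit to arthropod names on both arms, which left out miR-252a, was set after a first run. Both steps were checked on simulated data. The checks required calls only at planted changes larger than the miR-276 changes reported here. They therefore do not show how often changes of the reported size are missed. Normalised CPM are edgeR's. The alternatives used total counts, RLE factors, DESeq2 1.42.0, no filter, other rows, the replicate block, other pseudocounts, exact permutation and fewer libraries. Exact intervals and permutation used SciPy 1.17.1 and figures matplotlib 3.10.9.

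Named miRNAs were both arms, the 5 with the highest correlation to each, the reproduction list, all miRNAs with both arms measured and the tissue markers. The minor miR-276b form is a miR-276 row set, and the miRNAs with extreme values in day 6 replicate 3 were named after their values were seen. Members and lists were chosen with earlier results of these data known.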

Additional observations from a re-analysis of the deposited data

How the results depend on the processing

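Of 452 values recomputed for 21 results under alternatives, 406 kept direction and side of the threshold, 21 passed it where the full fit did not, and 25 changed sign, 1 of which also passed (ratio, day 6 against day 4). The passes came from leaving out libraries or fitting only the ages compared. Without day 0 replicate 1 and day 6 replicate 3 together (log2 differences), the ratio gave -1.155, -0.694 and -1.365 on days 2, 4 and 6 against day 0, and an adjusted p of 0.00103 over the 4 ages in limma. miR-276-3p gave -0.697 on day 6 and an adjusted p of 0.0444 over the ages in edgeR. miR-276-5p gave 0.756 on day 2, 0.654 on day 6 and an adjusted p of 0.0245 over the ages. That fit turned the ratio of day 6 against day 2 to -0.21 and against day 4 to -0.671 (limma adjusted p = 0.028), and miR-276-5p of day 6 against day 4 to 0.31. Day 6 replicate 3 was singled out by its 5p arm and this ratio, so passes of either without it are not support for a change. With only the libraries compared the ratio gave -1.119 for day 2 against day 0 and 0.462 for day 4 against day 2. With arm pairs under any name (9, adding miR-252a), a choice made after seeing the data, the ratio was not called with all libraries (limma adjusted p = 0.177, 0.51 and 0.658 on days 2, 4 and 6). With day 6 replicate 3 left out of that fit it gave -1.119, -0.658 and -1.329 (adjusted p = 0.00118, 0.0404 and 0.000754), -0.21 and -0.671 for day 6 against days 2 and 4, and an adjusted p of 0.00232 over the ages.

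Sign changes of miR-276-3p near 0 were 0.175 on day 2 with all rows, 0.009 on day 4 with RLE factors or DESeq2 and 0.279 with all rows, and for day 4 against day 2 -0.138 with total counts and -0.021 with summed profiles of the arm. The cause was not tested.

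Leaving out each library in turn, the ratio against day 0 ranged from -1.22 to -1.024 on day 2, -0.759 to -0.562 on day 4 and -1.329 to 0.264 on day 6, from -0.21 to 1.383 for day 6 against day 2 and -0.671 to 0.921 for day 6 against day 4, with an adjusted p of 0.00198 to 0.694 over the ages. It was called once in each comparison with day 0, without day 6 replicate 3. miR-276-3p ranged from -0.396 to 0.151 on day 2, -0.342 to 0.177 on day 4, -0.735 to -0.183 on day 6 and -0.077 to 0.142 for day 4 against day 2, with 0.0172 to 0.887 over the ages. miR-276-5p of day 6 against day 4 ranged from -0.619 to 0.333.

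The replicate numbers of the titles do not pair the libraries by the labels, and 6 of 18 same-numbered pairs had deviations correlated above 0.1. With the replicate block miR-276-3p changed by -0.373 on day 6 (adjusted p = 0.458 in edgeR), miR-276-5p by 1.057 on day 2 and the ratio by -1.119 on day 2, and no call of these results changed. Depth limits the minor miR-276b form, with 3 to 76 counts per library.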
